A study of Homo sapiens with 6 samples.

Results

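JAK1, JAK2, TYK2, STAT2, STAT3, STAT5A, STAT5B, STAT6 and IRF9 form the core of JAK-STAT signalling, the route by which cytokine receptors without kinase activity of their own reach the nucleus. They were taken from the count table by gene symbol, from a list of 9 names, and all 9 were found among its 27469 genes. Tags from the 3′ ends of transcripts were sequenced from HMC3, a line derived from human microglia by immortalisation with SV40 large T antigen. There were 3 IL-33 libraries, of cells given interleukin-33 (IL-33) for 24 h, and 3 Control libraries of cells labelled only as control. The dose of IL-33, any vehicle and the origin of the libraries in separate cultures are not given, so the spread that p-values rest on here may be technical.

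The Janus kinases JAK1, JAK2 and TYK2 sit on the inner tails of cytokine receptors and phosphorylate each other, the receptor and then the STAT proteins. Phosphorylated STATs pair, enter the nucleus and bind the gamma-activated sequence (GAS). STAT2 differs from the others in that it works with the DNA-binding protein IRF9 in the complex ISGF3, which carries the signal of type I interferons to the interferon-stimulated response element (ISRE). The receptor of IL-33, which belongs to the interleukin-1 family, uses the adaptor MyD88. In microglia and macrophages, STAT6 is known for responses to IL-4 and IL-13, and STAT3 for responses to the IL-6 family.

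None of the 9 genes passed the test for a difference between IL-33 and Control. With the quasi-likelihood test of edgeR, adjusted by Benjamini-Hochberg over 12125 genes, 0 of 9 passed an adjusted p of 0.05, where 0% of all genes tested did. The same holds for DESeq2 and limma-voom, each with 0 of 9. At an unadjusted p under 0.05 there were 0 of 9, against 2.43% of all genes (1.45% higher and 0.981% lower). In 0 of 9 genes did the IL-33 libraries lie all above or all below the Control libraries, against 8.06% of all genes. The log2 fold change (IL-33 over Control) was above 0 in 4 members and below 0 in 5, with a median of -0.07 and a range from -0.31 to 0.69. Over all genes tested its median was -0.01, and 48.9% lay above 0. For 8 of the 9 genes, and 73.4% of all genes, the 95% interval stayed inside -1 to 1. The exception was STAT5A, the least abundant. Without Control 3, a library that stood apart, 6 of 9 lay above 0, the median was 0.06 and 0 of 9 passed.

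Library totals ran from 8294747 to 10217529 counts with IL-33 and from 5739947 to 9933395 in Control, and levels are given in CPM, counts scaled to a library of 1000000. A gene at 0 counts may lie anywhere up to 3 counts, which is 0.294 CPM in the deepest library and 0.523 CPM in the shallowest, from counting error only. Control 3 had the fewest counts. It lay at -55.0 on the first principal component of log CPM, which held 35.4% of the variance, while the other 5 libraries lay between -0.86 and 18.0. Values of the 9 genes that rest on it and the medians of gene lists are given with and without it. So are log2 fold changes of other named genes where leaving it out turned the sign or moved the value by over 1.5 times. Leaving out Control 3 did either in 82 of 127 pathway genes, and leaving out Control 1 did so in 83. Of 25 microglia and macrophage markers reported, 12 had 0 counts in all libraries, among them ITGAM, P2RY12, TMEM119, CX3CR1, SPI1, TYROBP and IRF8. These 25 markers summed to between 11.7 and 16.5 CPM with IL-33 and between 8.04 and 15.2 CPM in Control. The 15 fibroblast and mesenchymal markers summed to between 7466 and 7822 CPM with IL-33 and between 7033 and 8120 CPM in Control, with COL3A1, ACTA2 and LUM at 0. These levels do not bear out the label of microglia, which is kept here as the name of the line. Of 5 T and natural killer cell markers 4 had 0 counts, of 6 oligodendrocyte markers 4, of 7 astrocyte markers 1 and of 6 neuron markers 1.

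The promoters of STAT2 and IRF9 are shown because their products form the part of ISGF3 that this list holds, and because GAS and ISRE letters are how STATs find genes. Both come from RefSeq on GRCh38.p14 and run from 250 bases before the annotated start to 50 after it, 5′ to 3′ on the gene's own strand. STAT2 lies on chromosome 12, minus strand, and its window is chr12:56360058-56360357. IRF9 lies on chromosome 14, plus strand, and its window is chr14:24161015-24161314. Capitals mark matches to the motifs searched.
STAT2: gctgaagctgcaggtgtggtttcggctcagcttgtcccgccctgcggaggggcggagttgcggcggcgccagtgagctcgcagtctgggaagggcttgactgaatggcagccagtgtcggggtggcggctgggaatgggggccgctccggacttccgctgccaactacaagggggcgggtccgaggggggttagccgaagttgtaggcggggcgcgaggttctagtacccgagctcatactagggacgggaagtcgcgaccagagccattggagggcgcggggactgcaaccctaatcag
IRF9: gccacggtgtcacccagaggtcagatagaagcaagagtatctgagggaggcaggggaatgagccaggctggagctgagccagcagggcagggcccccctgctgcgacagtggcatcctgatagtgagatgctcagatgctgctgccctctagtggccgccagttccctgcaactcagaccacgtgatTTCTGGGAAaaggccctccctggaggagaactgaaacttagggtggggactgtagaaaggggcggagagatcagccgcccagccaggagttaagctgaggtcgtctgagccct
The motifs were searched on both strands in 16 start windows of the 9 genes, which all had at least 1. The ISRE core GAAANNGAA was found in 0 of the 16, against 8.11% of 35116 windows of the same length in the genome. The GAS letters TTCNNNGAA occurred once, in IRF9, at positions -63 to -55 from the start, where they read TTCTGGGAA (7.66% of all windows hold a match). The form bound by STAT6, TTC and GAA with 4 bases between them, occurred once, in a window of STAT5A (6.44% of all windows). A match is a description of letters and not of binding, and a window without one says nothing of sites elsewhere.

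In abundance the 9 genes fell into an order that most libraries shared. Tags of this assay are read near the 3′ end, so a level in CPM does not grow with transcript length. Tags beyond an annotated 3′ end, overlapping genes and reads that match similar genes can still shift the level of a gene. The order is therefore one of counted tags. STAT3 was the most abundant at 132 CPM over the 6 libraries, followed by JAK1 at 83.1 and STAT2 at 51.2 CPM. The ranges of these 3 over the libraries did not overlap each other or that of the next gene. TYK2 followed at 33.3 CPM, STAT5B at 24.1, IRF9 at 19.5, STAT6 at 14.5 and JAK2 at 9.89 CPM. Neighbours among these 5 had ranges that overlapped, although TYK2 exceeded STAT5B, IRF9 exceeded STAT6, and STAT6 exceeded JAK2 within each of the 6 libraries. STAT5B exceeded IRF9 in 4 of 6. STAT5A lay lowest at 1.51 CPM, with no overlap with JAK2. Among all genes tested, STAT3 stood at the 88.1 percentile of mean level and STAT5A at the 3.86 percentile.

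**Figure D1:**
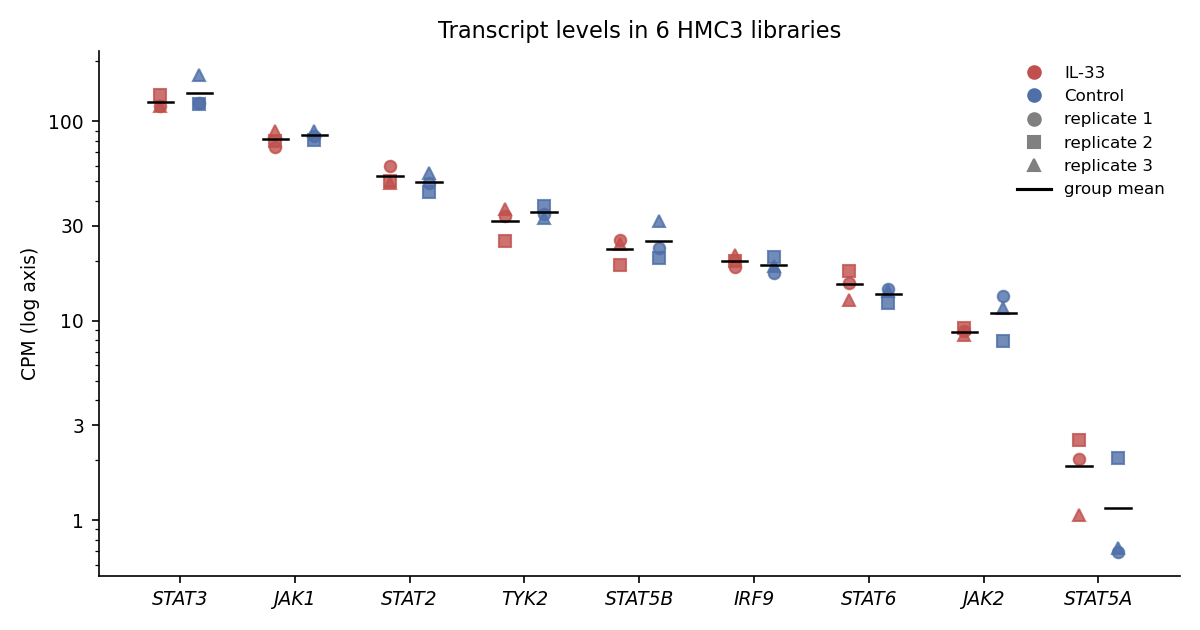
Level of each gene in CPM on a log axis, with IL-33 libraries on the left of each pair and Control libraries on the right; symbols give the replicate number and bars the group mean. STAT3 is highest, at 119.7 CPM or more in every library, and STAT5A lowest, at 2.54 CPM or less; in each gene the groups overlap.

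JAK1, the kinase shared by the interferon, IL-6 and common gamma chain receptors, was the most abundant of the kinases. It had 74.1, 80.1 and 89.5 CPM in the 3 IL-33 libraries and 84.3, 80.8 and 89.9 CPM in the 3 Control libraries. The groups overlapped, with means of 81.2 ± 7.77 CPM with IL-33 and 85.0 ± 4.61 CPM in Control (SD, n = 3 each). Its log2 fold change was -0.07 ± 0.12 (SE), with a 95% interval from -0.32 to 0.19, which leaves room for a level between 0.801 and 1.14 times that of Control. Of the 9 genes it had the smallest SE. Without Control 3 the log2 fold change of JAK1 was -0.03 ± 0.12. JAK1 lies on chromosome 1 from 64833229 to 64966504 (GRCh38, GENCODE release 29, as for all gene positions here) and had 4292 counts over the libraries.

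JAK2 serves the receptors for growth hormone, erythropoietin and interferon gamma. It had 8.84, 9.18 and 8.49 CPM with IL-33 and 13.3, 7.93 and 11.6 CPM in Control. Controls 1 and 3 lay above the IL-33 libraries and Control 2 below them. The IL-33 libraries were close to each other (coefficient of variation 3.92%) and the Control libraries were not (25.1%). Its log2 fold change of -0.31 ± 0.29 had a 95% interval from -0.91 to 0.29. Without Control 2 the value was -0.50, the lowest with a library left out, and without Control 1 it was -0.13. JAK2 lies on chromosome 9 from 4984390 to 5128183 and had between 64 and 134 counts per library.

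TYK2 acts beside JAK1 at the type I interferon receptor and beside JAK2 at the receptors for IL-12 and IL-23. It had 33.7, 25.1 and 36.2 CPM with IL-33 and 34.5, 37.5 and 32.9 CPM in Control. A single library, IL-33 2, lay below the rest. The log2 fold change was -0.15 ± 0.18 with a 95% interval from -0.52 to 0.22, and without IL-33 2 it was 0.00. TYK2 lies on chromosome 19 from 10350529 to 10380676. The related JAK3, which pairs with the common gamma chain, was measured at 3.38 ± 0.661 CPM with IL-33 and 4.07 ± 1.24 CPM in Control (SD, n = 3 each), with a log2 fold change of -0.27 ± 0.47 (-0.16 ± 0.53 without Control 3).

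Within the counts of the 3 listed kinases, JAK1 took 66.8% ± 3.25 with IL-33 and 64.9% ± 1.72 in Control, TYK2 25.9% ± 3.58 and 26.8% ± 2.67, and JAK2 7.31% ± 0.882 and 8.32% ± 1.91, in the same order of groups (SD, n = 3 each). These shares do not depend on the scaling of libraries. The share of each kinase overlapped between the groups. JAK1 had between 8.37 and 10.5 counts per count of JAK2 with IL-33, and between 6.34 and 10.2 in Control.

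STAT3, the STAT of the IL-6 family and an acute-phase regulator, was the most abundant of all 9. It had 119.7, 136 and 119.8 CPM with IL-33 and 124, 122 and 172 CPM in Control. Control 3 lay above all others and the other 5 libraries lay between 119.7 and 136 CPM. The log2 fold change was -0.15 ± 0.13, with a 95% interval from -0.42 to 0.12. Without Control 3 it was 0.03 ± 0.10, with an interval from -0.17 to 0.22, so its sign rested on that library.

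STAT5A and STAT5B, which encode closely similar proteins that carry signals of growth hormone, prolactin and IL-2, differed in level. STAT5B had 25.5, 19.1 and 24.2 CPM with IL-33 and 23.2, 20.7 and 31.8 CPM in Control. As in STAT3, Control 3 was the highest library. The log2 fold change was -0.13 ± 0.21, with a 95% interval from -0.57 to 0.30, and without Control 3 it was 0.06 ± 0.21. STAT5A had 19, 26 and 9 counts with IL-33 and 7, 17 and 4 counts in Control, or 2.02, 2.54 and 1.06 CPM and 0.695, 2.04 and 0.724 CPM in the same order of groups. Controls 1 and 3 lay below the IL-33 libraries and Control 2 within their range. Its log2 fold change of 0.69 ± 0.74, the highest of the 9, had a 95% interval from -0.85 to 2.23, and with a library left out it ran from 0.40 to 1.40. A difference of that size did not exceed the spread between libraries, whose coefficient of variation was 40.0% with IL-33 and 66.8% in Control. There were between 7.54 and 22.8 counts of STAT5B per count of STAT5A with IL-33 and between 10.1 and 44.0 in Control. How reads that match both genes were counted is not given in the sources used here.

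These 2 genes and STAT3 are neighbours on chromosome 17. STAT5B runs from 42199168 to 42276707 on the minus strand, STAT5A from 42287547 to 42311943 on the plus strand and STAT3 from 42313324 to 42388568 on the minus strand. The 3′ ends of STAT5A and STAT3, where tags are read, face each other with 1380 bases between them and do not overlap in the annotation. The starts of STAT5B and STAT5A lie 10839 bases apart.

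STAT6, the STAT of IL-4 and IL-13, had 15.4, 17.9 and 12.7 CPM with IL-33 and 14.4, 12.3 and 14.1 CPM in Control. The libraries IL-33 1 and IL-33 2 lay above all Control libraries and IL-33 3 within their range. The log2 fold change was 0.18 ± 0.24, with a 95% interval from -0.32 to 0.67, and it was 0.29 without IL-33 3 and 0.05 without IL-33 2, the extremes with a library left out. STAT6 lies on chromosome 12 from 57095408 to 57132139 on the minus strand. At its 3′ end it shares 69 bases with NAB2 on the opposite strand (305 counts, against 761 for STAT6). The library kit keeps the strand, but the strand setting of the counting is not given. Reads of either gene may thus be left out there or counted for the other. JAK1 and RAVER2 (363 counts) meet likewise, over 4 bases. The 3′ end of JAK2 lies within a far longer overlap, of 4304 bases, with INSL6 on the opposite strand (0 counts). Whether tags of JAK2 were left out there was not tested, so its level and its share among the kinases may be too low.

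STAT2 and IRF9 together bring the interferon signal to DNA. STAT2, on chromosome 12 from 56341597 to 56360155, had 60.0, 50.1 and 48.9 CPM with IL-33 and 49.0, 44.4 and 55.2 CPM in Control. The highest library was IL-33 1 and the lowest Control 2, and the other 4 lay interleaved. Its log2 fold change was 0.10 ± 0.15, with a 95% interval from -0.21 to 0.41. Without Control 3 the value for STAT2 was 0.18 ± 0.15, with an interval from -0.11 to 0.47. IRF9, on chromosome 14 from 24161053 to 24166565, had 18.5, 19.9 and 21.5 CPM with IL-33 and 17.4, 20.8 and 18.8 CPM in Control. Its spread was among the smallest, with the highest library at 1.23 times the lowest, and its log2 fold change was 0.07 ± 0.20 (95% interval from -0.35 to 0.50). The number of STAT2 counts per IRF9 count was 3.24, 2.51 and 2.28 with IL-33 and 2.82, 2.13 and 2.93 in Control, again without separation. In GENCODE release 29 a second gene on the same strand, AL136295.5, covers IRF9 whole. It has no row in the table under that name.

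Within the counts of the 5 listed STATs, STAT3 took 57.3% ± 3.31 with IL-33 and 60.7% ± 2.07 in Control (SD, n = 3 each). STAT2 took 24.3% ± 2.44 with IL-33 and 21.8% ± 1.53 in Control, STAT5B 10.5% ± 1.79 and 10.97% ± 0.693, STAT6 7.01% ± 0.879 and 6.02% ± 0.836, and STAT5A 0.849% ± 0.310 and 0.536% ± 0.415, each with IL-33 first. All 5 shares overlapped between the groups. STAT4, a further family gene outside this list, had 1 count in all, in IL-33 3.

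**Figure D2:**
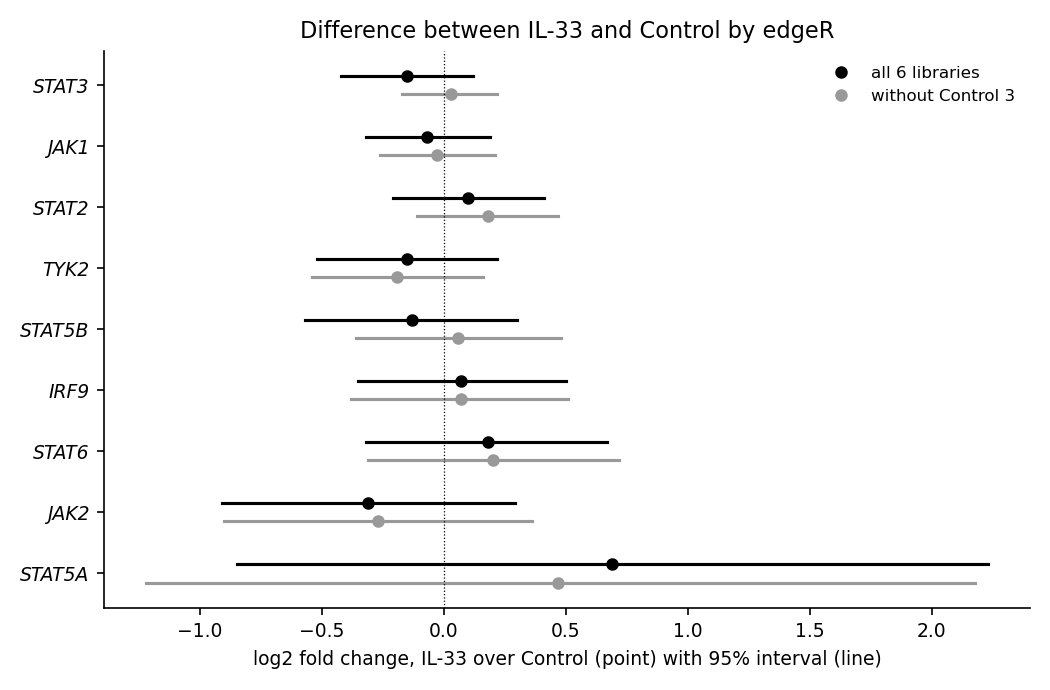
Log2 fold change (IL-33 over Control, points) with its 95% interval (lines) by edgeR, for all 6 libraries in black and without Control 3 in grey, genes ordered by level. Each interval includes 0; STAT3 and STAT5B are at -0.15 and -0.13 with all libraries and at 0.03 and 0.06 without Control 3.

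The libraries in which members were high differed from gene to gene. As log2 distance from the gene's own mean over the 6 libraries, Control 3 was at 0.39 in STAT3, 0.42 in STAT5B and 0.25 in JAK2, and at -0.74 in STAT5A. IL-33 2 was at 0.80 in STAT5A and 0.31 in STAT6, and at -0.31 in STAT5B and -0.39 in TYK2. The mean over all 9 genes was 0.05, 0.04 and -0.05 with IL-33 and -0.06, -0.03 and 0.05 in Control. The 9 genes summed to 358, 360.1 and 362 CPM with IL-33 and to 360.4, 349 and 427 CPM in Control, where Control 3 stood highest.

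**Figure D3:**
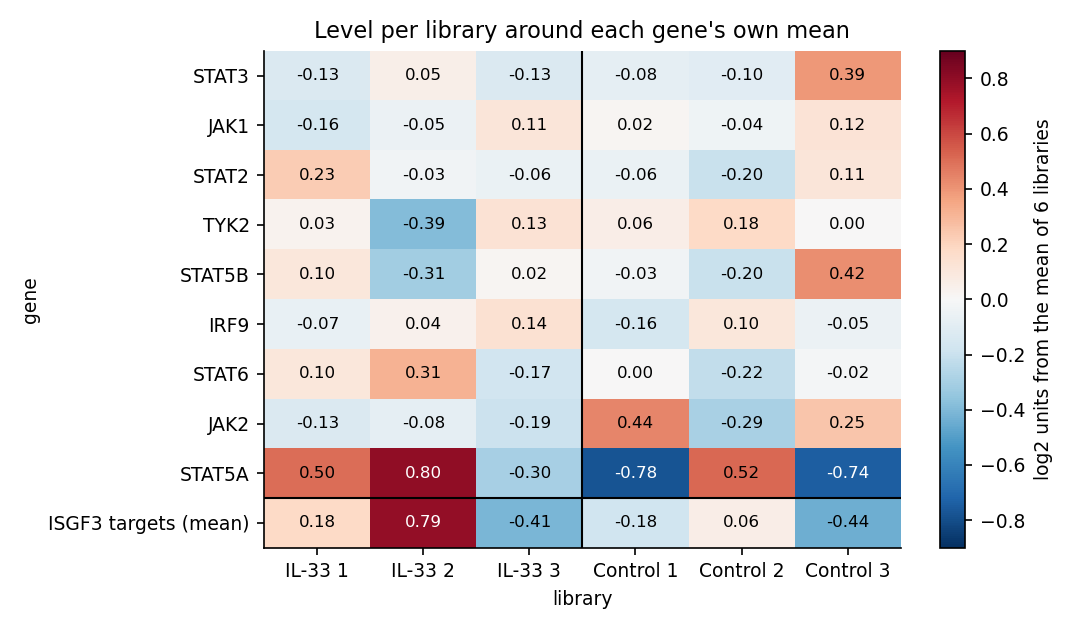
Level of each gene in each library in log2 units from its own mean over the 6 libraries (numbers and colour), IL-33 libraries left of the line and Control libraries right of it, with the mean of 35 ISGF3 target genes in the bottom row. STAT2 and IRF9 stay within -0.20 to 0.23, while the ISGF3 targets run from -0.44 to 0.79.

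Genes with the most similar pattern were sought for STAT2, IRF9 and JAK2 among those at 10 CPM or more, by the root mean square difference of centred log2 levels over the 6 libraries. For STAT2 they were IDH2 (0.0374), BCL9L (0.0405) and COMMD4 (0.0422), where STAT2 itself had an SD of 0.152. For IRF9 they were SENP5 (0.0356), CASP8AP2 (0.0367) and DONSON (0.0402), against an SD of 0.112. JAK2 was followed most closely by SRGAP2C (0.0600), ABCC4 (0.0611) and NUDT16L1 (0.0769), against 0.283. NUDT16L1 had 24.3, 25.8 and 23.0 CPM with IL-33 and 33.9, 19.1 and 31.8 CPM in Control, with Controls 1 and 3 high as in JAK2. SRGAP2C has near-identical copies in the genome, so its own count is uncertain. Between 8328 and 8329 genes were compared over 6 libraries, and these matches are descriptions with no test.

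The receptors through which JAKs act were measured in part. Of 32 class I receptor chains 13 could be tested and 9 had 0 counts in all libraries. By edgeR 0 of 13 passed, 4 lay above 0 and 9 below, and the median log2 fold change was -0.17. Without Control 3 the median was -0.21, over the 15 chains that could then be tested. IL6ST, which encodes gp130, the shared chain of the IL-6 family, had 76.9 ± 14.1 CPM with IL-33 and 82.5 ± 11.1 CPM in Control (SD, n = 3 each). OSMR, the oncostatin M receptor, had 47.1, 60.9 and 59.7 CPM with IL-33 and 70.4, 74.1 and 29.1 CPM in Control. Control 3 was the lowest library and the other Control libraries the highest. OSMR had a log2 fold change of -0.06 ± 0.33 with all libraries and -0.37 ± 0.13 without Control 3 (unadjusted p = 0.00686 by edgeR, which did not pass the adjustment). In the fit without Control 3, 794 of 12611 genes had an unadjusted p under 0.05, against 295 of 12125 with all libraries. IL6R, the IL-6 receptor chain, was the sole member of 13 at an unadjusted p under 0.05, where 2.43% of all genes were (0.981% lower). It did not pass the adjustment. IL6R was low, with between 10 and 42 counts per library. It had 1.49, 2.34 and 1.18 CPM with IL-33 and 4.17, 3.61 and 4.52 CPM in Control, so the groups did not overlap, as in 3.51% of all genes for IL-33 below Control. Its log2 fold change was -1.28 ± 0.55 with a 95% interval from -2.42 to -0.14. With a library left out it ran from -1.60 to -1.08, and the unadjusted p stayed under 0.05 without IL-33 2 or Control 2 and not without any of the other 4 libraries. The other 3 of smallest p were IL4R (0.36 ± 0.27), the leptin receptor gene LEPR (-0.40 ± 0.30) and IL27RA (0.37 ± 0.33). The groups also did not overlap in IL13RA1, so IL-33 lay below Control in 2 of 13 chains (3.51% of all genes). IL13RA1 had 22.7, 24.9 and 24.2 CPM with IL-33 and 27.8, 27.65 and 26.2 CPM in Control.

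Of 10 class II chains, the interferon and IL-10 type, 6 could be tested, 0 passed or had an unadjusted p under 0.05, and the median was 0.01 (-0.08 without Control 3). The number above 0 was 4 of 6, and 2 of 6 without Control 3. IFNAR1 and IFNAR2, the receptor pair for type I interferons, had log2 fold changes of 0.01 ± 0.15 and 0.02 ± 0.25 (0.01 and -0.02 without Control 3). IFNAR1 measured 49.8 ± 1.63 CPM with IL-33 and 49.5 ± 8.11 CPM in Control (SD, n = 3 each). IL10RB, the shared chain of IL-10 type receptors, had 0.06 ± 0.15. IFNGR2, a chain of the interferon gamma receptor, had 38.4, 33.9 and 33.2 CPM with IL-33 and 40.8, 37.0 and 18.5 CPM in Control. The log2 fold change of 0.12 ± 0.23 rested on Control 3, the lowest library, and was -0.15 ± 0.16 without it. IFNGR1, the partner chain, had -0.14 ± 0.68, and -0.62 ± 0.36 without Control 3. In IFNGR1 Control 3 was at 0.905 CPM, against 8.78 and 10.5 CPM in the other Control libraries.

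Ligands of these receptors were mostly not detected, with 27 of 43 at 0 counts in all libraries, among them IFNB1, IFNG, IL4, IL13 and OSM. Of the 6 tested, 0 passed or had an unadjusted p under 0.05 and all 6 lay below 0, with a median of -0.16 (-0.48 without Control 3). They were IL11, LIF, CLCF1, CTF1, EBI3 and IL15. IL11 was the most abundant at 81.4 CPM over the libraries, with -0.01 ± 0.13, and the next was CTF1, which encodes cardiotrophin 1, with -0.24 ± 0.46 (-0.62 ± 0.28 without Control 3, unadjusted p = 0.0271 by edgeR, which did not pass the adjustment). IL11 itself had -0.10 ± 0.12 without that library. Without Control 3, 794 of 12611 genes had an unadjusted p under 0.05. LIF, a cytokine of the IL-6 family, had 2.45, 2.64 and 4.01 CPM with IL-33 and 3.38, 8.05 and 0 CPM in Control. The lowest library was Control 3 and the highest Control 2. LIF had a log2 fold change of -0.37 ± 0.87, -0.91 ± 0.50 without Control 3 and 0.73 ± 0.89 without Control 2. IL15 had -0.37 ± 0.55 and CLCF1 -0.08 ± 0.31 (-0.20 without Control 3).

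Inhibitors of the pathway were well covered, with 17 of 22 tested. By edgeR 0 passed or had an unadjusted p under 0.05, 10 lay above 0 and 7 below, and the median was 0.05. Without Control 3 the counts turned to 6 above 0 of 17, with a median of -0.09. The lowest p belonged to SOCS7, a suppressor of cytokine signalling, with 38.5 ± 2.56 CPM with IL-33 and 30.1 ± 9.26 CPM in Control (SD, n = 3 each) and a log2 fold change of 0.34 ± 0.20. Control 3 was the lowest library at 21.5 CPM, and the value was 0.16 ± 0.17 without it and 0.60 ± 0.20 without Control 1. PDLIM2, a ubiquitin ligase known in mouse to act on STAT proteins, had 423, 405 and 415 CPM with IL-33 and 360.1, 389 and 384 CPM in Control, a log2 fold change of 0.13 ± 0.09. Each IL-33 library was above each Control library, as in 4.54% of all genes. PTPN1, a phosphatase that removes phosphate from JAK2 and TYK2, was the most abundant at 650.2 CPM, with -0.01 ± 0.10 (0.07 without Control 3). PTPN11, which encodes SHP2, had -0.09 ± 0.11 (-0.02 without Control 3) and the SUMO ligase gene PIAS4 0.15 ± 0.15.

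Genes known as targets of the STATs in various cells were counted in the same fit. Of 17 tested STAT3 targets, 0 passed, 8 lay above 0 (48.9% of all genes) and the median was 0.00. Without Control 3 the median was -0.08, over the 18 targets that could then be tested. With all libraries, 1 of 17 had an unadjusted p under 0.05 by edgeR (2.43% of all genes did). That gene was HIF1A, the oxygen-sensing transcription factor, at 35.8 ± 2.86 CPM with IL-33 and 27.9 ± 3.31 CPM in Control (SD, n = 3 each), with a log2 fold change of 0.36 ± 0.17. Each IL-33 library was above each Control library, as in 4.54% of all genes. With a library left out it ran from 0.27 to 0.45, with an unadjusted p of 0.05 or more without IL-33 2, IL-33 3 or Control 1. The cyclin gene CCND1 had -0.18 ± 0.10, CEBPB 0.26 ± 0.14, BCL2L1, which encodes the survival factor Bcl-xL, -0.15 ± 0.10 and BIRC5, which encodes survivin, -0.05 ± 0.10. Without Control 3 they had -0.11, 0.12, -0.05 and 0.02, in that order. Of 10 tested STAT5 targets, 0 passed or had an unadjusted p under 0.05, 7 lay above 0 and the median was 0.08 (4 above 0 and -0.04 without Control 3). CCND1 and BCL2L1 belong to this list too, and beside them ID1 had 0.39 ± 0.34 and SPRED1 0.15 ± 0.13. Of 7 tested STAT6 targets, 0 passed or had an unadjusted p under 0.05, 3 lay above 0 and the median was -0.02 (-0.06 without Control 3). Of the chemokine genes typical of STAT6, CCL26 was near the detection limit at 0.966 CPM over the libraries, and CCL11 was low at 2.71 CPM. Their log2 fold changes were 0.67 ± 0.86 and 0.41 ± 0.59, and 0.41 and 0.06 without Control 3. BATF3 had 6.93, 10.3 and 8.25 CPM with IL-33 and 10.4, 9.74 and 18.3 CPM in Control, where Control 3 was the highest library. BATF3 had a log2 fold change of -0.57 ± 0.31, and -0.24 ± 0.32 without Control 3. NFIL3, the most abundant, had -0.06 ± 0.19, while 8 of the 22 listed STAT6 targets had 0 counts.

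ISGF3 targets are the genes that STAT2 and IRF9 serve. Of 35 tested, 0 passed by edgeR, 4 had an unadjusted p under 0.05, all higher with IL-33 (1.45% of all genes), and 31 lay above 0 (48.9% of all genes) with a median of 0.35. Centred on each gene's mean over the libraries, their average log2 level was 0.18, 0.79 and -0.41 with IL-33 and -0.18, 0.06 and -0.44 in Control. The values were highest in IL-33 2 and lowest in IL-33 3 and Control 3. Leaving out IL-33 2 gave a median of 0.12 with 21 of 35 above 0, and leaving out Control 3 gave 0.33 with 33 of 37. In IL-33 2, STAT2 stood at -0.03 and IRF9 at 0.04 on the same scale. The antiviral gene IFIT1 had 16.7, 35.4 and 12.8 CPM with IL-33 and 7.65, 13.6 and 9.05 CPM in Control. IFIT1 had a log2 fold change of 1.11 ± 0.36, and 0.55 ± 0.32 without IL-33 2. SAMD9 had 14.1, 32.3 and 10.6 CPM with IL-33 and 8.04, 13.0 and 8.32 CPM in Control, with IL-33 2 again the highest library. IFIT2, SAMD9 and PARP14 had log2 fold changes of 1.22 ± 0.45, 0.96 ± 0.38 and 0.35 ± 0.16, and of 0.99 ± 0.52, 0.33 ± 0.32 and 0.25 ± 0.18 without IL-33 2. In IFIT1, IFIT2, SAMD9 and PARP14, the 4 genes counted above, the unadjusted p was over 0.05 without that library. The most abundant targets, IFITM3 and IFI6, had 0.15 ± 0.12 (0.28 without Control 3) and 0.43 ± 0.28. The IFIT and IFITM genes are families of similar genes, among which reads may be split. Of 24 adaptors and cofactors, all tested, 0 passed or had an unadjusted p under 0.05, 7 lay above 0 and the median was -0.05 (-0.04 without Control 3). The importin gene KPNB1 had -0.04 ± 0.09, the adaptor gene GRB2 -0.07 ± 0.09 and the coactivator genes NCOA1 and CREBBP -0.30 ± 0.24 and -0.13 ± 0.12. Without Control 3 these 4 had 0.03, -0.03, -0.45 and -0.05, in that order. The importin gene KPNA5 had 0.35 ± 0.41 and the exportin gene XPO1 -0.09 ± 0.11. DESeq2 and limma-voom likewise called 0 members of each of these lists. Some genes stand in several lists, so the counts of lists are not independent.

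**Figure D4:**
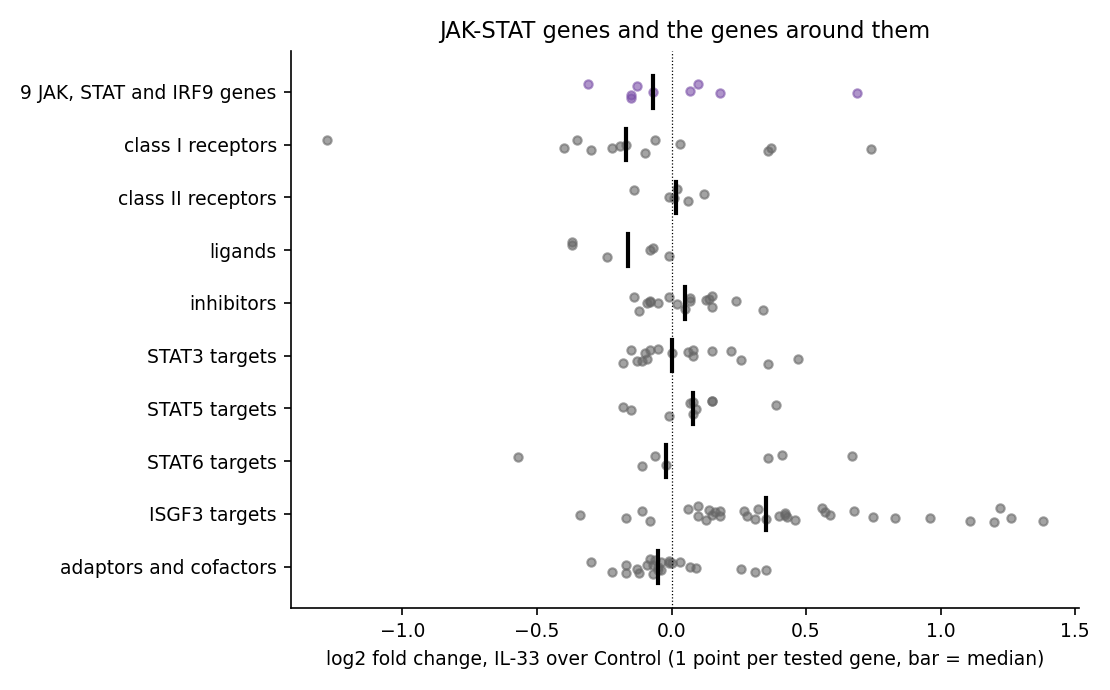
Log2 fold change (IL-33 over Control) of each tested gene, 1 point per gene, for the 9 JAK, STAT and IRF9 genes and the lists of the pathway around them; bars give medians. The 9 genes have a median of -0.07 and the ISGF3 targets of 0.35; 0 genes of any list passed the adjusted threshold.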

How the data were processed

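RNA from HMC3 was extracted with TRIZOL and made into libraries with the Lexogen QuantSeq 3′ FWD kit, per the labels' protocols. The authors deposited whole-number read counts per gene symbol for 6 libraries, and, per the submitters' processing notes, the build was hg38 and the tools named were edgeR, HTSeq 0.6.1 and STAR 2.7.5a, with no role given. Annotation and strand setting: not given in the sources used here. Tags that fall beyond a gene's annotated 3′ end would be missed.

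Of 27470 rows, 1 without values was left out. Genes were filtered with filterByExpr (minimum count 10, total 15), scaled by TMM and fitted with edgeR 4.0.16 (R 4.3.3) by the robust quasi-likelihood test, group as the sole term, with Benjamini-Hochberg adjustment over 12125 genes at 0.05. SEs and intervals come from the same fit. CPM used TMM-scaled totals, and log levels a prior count of 2. DESeq2 1.42.0, limma 3.58.1, other scalings and filters, a replicate block, non-robust estimation and each library left out were the 14 alternatives. Figures used matplotlib 3.10.9.

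Named were all 9 genes and, from each list, up to 4 tested members with the smallest p and up to 2 with the highest level. Members and lists were chosen with earlier results of these data known. Genes at 0 counts, EBI3, JAK3, STAT4, IL13RA1, IFNAR1, IFNAR2, IFNGR1 and overlap partners are named beside these for description. All 286 distinct list genes looked up were found as given. The fixed lists hold 2 further genes that are not reported here. Libraries of a group differed by 5.60 to 16.5 chi-square per degree of freedom, so none were merged. Protein sequences were not used here.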

Additional observations from a re-analysis of the deposited data

How the results depend on the processing

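Under the 14 alternatives, 124 values of the 9 genes could be computed and 0 passed an adjusted p of 0.05; the smallest unadjusted p was 0.118, for JAK2 without Control 2. JAK2 and STAT5A gave no value with the filter at 10 CPM. Rounded to 2 decimals, 119 values kept the sign, 3 were at 0.00 (JAK1 and STAT2 without IL-33 1, TYK2 without IL-33 2) and 2 had the other sign, for STAT3 (0.03) and STAT5B (0.06) without Control 3. With a library left out, the log2 fold changes ran from -0.23 to 0.03 for STAT3, from -0.26 to 0.06 for STAT5B, from -0.50 to -0.13 for JAK2 and from 0.40 to 1.40 for STAT5A. The count of changed genes in the whole table, 0 in the main test, was 3 without the low-count filter (3 higher), and from 0 to 6 with a library left out (0 to 3 higher, 0 to 3 lower), 6 of them without Control 3; 0 of these were members of the lists here. The cause was not tested. Other scalings moved the median of all genes by less than 0.1.

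With the replicate block, edgeR called 0 genes and the values of the 9 genes kept their signs. The labels do not say that the numbers pair the libraries, and same-numbered deviations correlated at -0.086, 0.027 and -0.136. STAT5A had 82 counts over 6 libraries. Of the 127 pathway genes tested with every library left out in turn, between 9 (without IL-33 3) and 27 (without Control 1) turned sign, and 21 did so without Control 3; these settings were chosen after seeing the data.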
